A study of Equus caballus with 12 samples.

Results

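The stage at which horse oocytes were vitrified was examined here by setting oocytes frozen before maturation against oocytes frozen after it, with no fresh oocytes in the comparison. The genes described are the well measured ones, defined by a normalized count of at least 10 in each of the 7 vitrified samples. They were 1313 of the 11425 genes listed (11.5%), and 7627 genes could be tested between the groups. The 4 VIM samples (labelled VGV) held oocytes vitrified while immature, at the germinal vesicle stage and still surrounded by the corona radiata, the innermost layer of cumulus cells, which were then warmed, matured in vitro, denuded and checked for a polar body. The 3 VMAT samples held oocytes matured in vitro, denuded, checked for a polar body, then vitrified and warmed. In both groups the oocytes came from slaughterhouse ovaries and were stored for RNA at the mature stage, after vitrification, warming and maturation in a different order. VIM oocytes went through the whole maturation between warming and storage, while VMAT oocytes had only a short culture after warming. Time since warming thus cannot be told apart from stage. The paper left out pools of both groups on RNA amount and quality, and a further VMAT pool with low RNA quality and few reads. A replicate was a pool of on average 23 oocytes. Nothing in the labels ties the oocytes of a pool to separate mares, so p-values refer to pools and not to mares.

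A mature oocyte is arrested in metaphase of the second meiotic division and hardly transcribes. Its mRNA was made during growth, is stored with a short poly(A) tail, and is adenylated, translated or degraded at set times during maturation and after fertilization. Vitrification replaces cell water with cryoprotectants and cools the cell to a glass, and it is known for effects on the spindle, the actin cortex, mitochondria, calcium stores and the zona pellucida. The libraries were made with a 3′ kit that primes on the poly(A) tail. In such pools fewer cells and less RNA per cell cannot be told apart.

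Depth, taken here as the total of the counts recovered from the deposited values, differed more within VMAT than between the groups. These counts, called reads here, follow the authors' handling of unique molecular identifiers, so they are not the number of reads sequenced. VMAT replicate 1 had the fewest reads on genes, 1636620, and VMAT replicate 2 the most, 12166950, with the 4 VIM samples between these. A normalized count of 10 stood for 4 reads in VMAT replicate 1, for 7 to 17 reads in VIM and for 80 reads in VMAT replicate 2. The well measured genes held 68.9 to 78.3% of the reads of a sample. After the authors' scaling these genes still sat above their mean over samples by 0.83 on the log2 scale (median) in VMAT replicate 1 and below it, at -0.59, in VMAT replicate 2, so some values below are also given with size factors computed from the well measured genes alone, called rescaled here. A further fit, added after seeing the data and called the refit here, took both the size factors and the variances from the well measured genes. Of the 10 oocyte markers found by name, 8 were well measured (BMP15, BTG4, DPPA3, GDF9, H1-8, WEE2, ZP2 and ZP4) and 2 were not (FIGLA and ZAR1). Of the cumulus and granulosa list only HAS2, the hyaluronan synthase of the expanding cumulus, could be found by name. Its normalized counts were 736, 641, 2144 and 1536 in VIM and 1755, 451 and 254 in VMAT, which overlapped. No gene of the blood and immune list could be found by name, and since names were at hand for 2569 of the genes listed, no statement on its absence is made. MS4A1, a B cell gene outside that list, was well measured and is given below. The part of other cell types in the results was not tested.

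No well measured gene was differentially expressed (DE) between VIM and VMAT. The main test was limma on log2(normalized count + 1), and genes counted as DE where the p, adjusted by Benjamini-Hochberg over all genes tested, did not exceed 0.05 and the log2 fold change was 1 or more in either direction. It called 0 of 1313 well measured genes and 0 of all 7627 genes (0%), and the smallest limma adjusted p of any gene was 0.967. edgeR's quasi-likelihood test on the recovered reads also called 0 well measured genes, against 1 gene overall (0.0131%). DESeq2 on the same reads called 10 well measured genes (0.762%), a smaller share than the 3.93% it called over all genes tested. The rule for well measured genes leaves out genes near 0 in any pool, so shares over all genes are background and not a like comparison. At an unadjusted limma p under 0.05 there were 30 well measured genes (2.28%), against 2.98% of all genes tested. In limma the variance of a gene is pulled toward that of genes at a similar level. Its p thus does not rest on the gene's own spread alone. SNX1, whose groups overlapped as deposited, had a within-group SD of 2.52 on the log2 scale and a limma p of 0.00997. NLRP13, whose groups did not overlap, had an SD of 0.51 and a limma p of 0.0774.

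**Figure D1:**
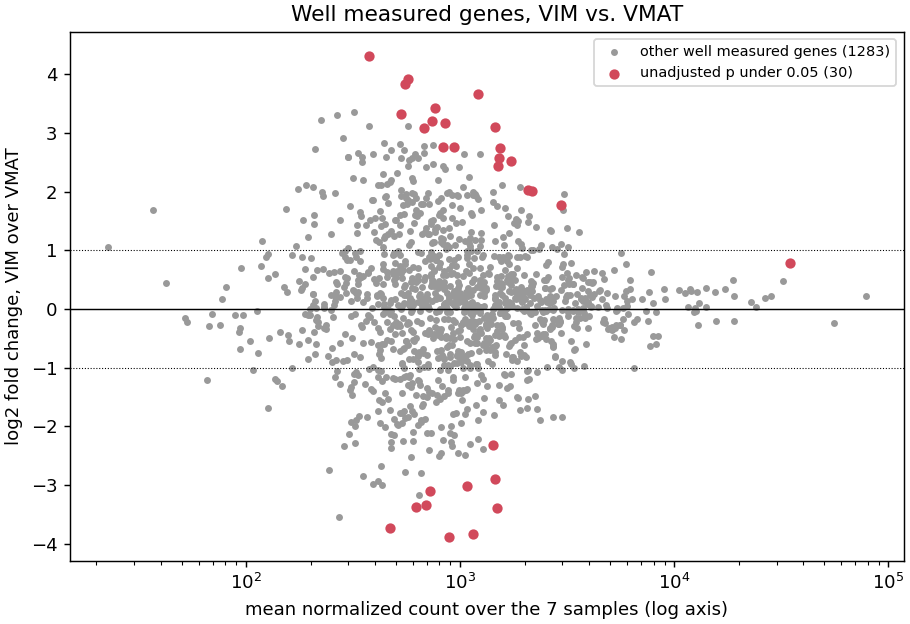
Log2 fold change of VIM over VMAT (vertical axis) against the mean normalized count over the 7 samples (horizontal log axis) for the 1313 well measured genes, 1 point a gene. The 30 genes with an unadjusted p under 0.05 are in red, none of them passes the adjusted test, and the spread of fold changes is narrowest among the most abundant genes.

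The differences were small beside the spread between pools. The median absolute log2 fold change was 0.60 over the well measured genes and 1.40 over the other genes tested. Genes near 0 in a pool are left out by the rule, so a narrower spread of fold changes is built into it. The median within-group SD was 1.34 on the log2 scale, with quartiles of 0.94 and 1.91. These SDs are at the deposited scaling, so they also hold the offsets of whole pools given above. For 1054 genes (80.3%) the group difference was below the gene's own within-group SD. It exceeded 2 such SDs in 41 genes. By direction, 736 genes had the higher mean log2 value in VIM and 577 in VMAT, with a median log2 fold change of 0.11 (0.06 rescaled), beside -0.08 over all genes tested. This balance is near 0 and depends on the scaling, since quantile normalization gave -0.03 for the well measured genes and 0.02 for all tested.

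Fold changes of at least 1 on the log2 scale were found in 240 well measured genes in the direction of VIM and in 190 in the direction of VMAT. Both are smaller shares (18.3% and 14.5%) than over all genes tested, where 25.9% were higher in VIM and 31.7% in VMAT by that much. Leaving out genes with a low value in any pool lowers such shares, so this is not read as a result about the well measured genes. The direction depended on the scaling, with 229 of 430 such genes higher in VIM after rescaling and 169 of 393 after quantile normalization. An unadjusted p under 0.05 was reached by 20 genes higher in VIM, against a background of 0.97%, and by 10 higher in VMAT, against 2.01%. After rescaling these numbers were 31, against 0.97%, and 19, against 1.85%. The values of the groups did not overlap in 43 genes higher in VIM (3.27%, background 1.72%) and in 11 genes higher in VMAT (0.838%, background 2.78%). After rescaling the counts became 31 (2.36%, background 1.25%) and 36 (2.74%, background 3.28%). By these overlap counts the direction with more genes depended on the scaling. At an unadjusted p under 0.05 more genes were higher in VIM under both scalings, but 22 of 48 after quantile normalization. The groups were free of overlap under both scalings in 21 genes higher in VIM and 10 higher in VMAT. No share over all genes tested was computed for these genes or with a pool left out, so no direction is read from them. Leaving out a VMAT pool moved these counts: at an unadjusted p under 0.05 there were 59 genes without VMAT replicate 1 (58 higher in VIM), 57 without VMAT replicate 2 (30 higher in VIM) and 32 without VMAT replicate 3 (31 higher in VIM). Genes without overlap numbered 54 with all pools, 168, 188 and 123 without these VMAT pools, and 109, 99, 81 and 90 without VIM replicates 1 to 4, where fewer pools leave less room for overlap.

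In 651 genes every sample had at least 100 reads. Their median within-group SD was 0.98 on the log2 scale, beside a median SD of 0.044 from counting error alone, a comparison of size and not a test. The SD of 0.98 is at the deposited scaling, so it also holds the offsets of whole pools given above. No SD after rescaling is given. In the main fit 2 of these genes (0.307%), PSMA7 and PHF20L1, had an unadjusted p under 0.05, against 2.98% of all genes tested. In the refit so did others with at least 100 reads in every sample, among them NLRP13, GSTM3 and CCDC186. Their number in the refit was not counted. PSMA7 was named by rule and PHF20L1 was singled out after its values were seen. Over 4 classes of genes from the lowest to the highest mean normalized count, the median within-group SD was 1.64, 1.70, 1.26 and 0.99.

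The genes with the smallest p in the direction of VIM came from several functions. PSMA7, an alpha subunit of the 20S core of the proteasome, was the deepest of them. Its normalized counts were 32986, 44260, 57027 and 33905 in VIM and 27558, 15130 and 31943 in VMAT. Every VIM pool was above every VMAT pool under both scalings, and the lowest count behind a value was 8856 reads. The log2 fold change was 0.79 with a standard error (SE) of 0.34 and a 95% interval from 0.11 to 1.47, so even here the bound nearest to 0 is a small difference. PHF20L1, a reader of methylated lysines, had normalized counts of 2769, 2655, 6587 and 3949 in VIM and 426, 864 and 3451 in VMAT, where replicate 3 overlapped with VIM.

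The log2 differences of over 3 were found at lower levels. PITRM1, a peptidase of the mitochondrial matrix that degrades presequences, had normalized counts of 198, 901, 565 and 847 in VIM and 15.6, 80.9 and 14.1 in VMAT. NOL11, a nucleolar factor of ribosomal RNA transcription and processing, had 773, 1897, 681 and 294 in VIM and 68.5, 132 and 14.1 in VMAT. Both genes had all VIM pools above all VMAT pools under either scaling, with log2 fold changes of 4.31 (SE 1.83, interval 0.69 to 7.92) and 3.83 (SE 1.63, interval 0.61 to 7.05). The fewest reads behind a value were 5 in PITRM1 and 12 in NOL11. PITRM1 had the largest log2 fold change of the well measured genes.

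SLC45A4, a solute carrier, had normalized counts of 1206, 1412, 395 and 1889 in VIM and 34.2, 337 and 80.2 in VMAT. Its groups did not overlap as deposited but did after rescaling. TRIP11, a Golgi tethering protein, had 393, 655, 823 and 1695 in VIM and 24.9, 405 and 11.8 in VMAT, where replicate 2 reached the lowest VIM pool. NSD2, a histone H3 lysine 36 methyltransferase, had 85.9, 3382, 701 and 3923 in VIM and 37.3, 287 and 36.6 in VMAT. Its VIM pools differed among themselves more than the groups did, and VIM replicate 1 lay below VMAT replicate 2. Log2 fold changes were 3.43 for SLC45A4, 3.92 for TRIP11 and 3.67 for NSD2, with SEs of 1.43, 1.63 and 1.53.

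EIF4ENIF1 encodes 4E-T, which binds the cap-binding protein eIF4E and keeps maternal mRNA stored and untranslated in oocytes. Its normalized counts were 2374, 2866, 2837 and 813 in VIM and 890, 878 and 33.0 in VMAT. A pair of VMAT pools sat just above the lowest VIM pool, and the third, at 28 reads, was far below. SH3KBP1, an adaptor of receptor endocytosis, had 1710, 766, 4129 and 2216 in VIM and 286, 994 and 34.2 in VMAT. Here too VMAT replicate 3 stood lowest, and the log2 fold changes were 2.74 (SE 1.14) for EIF4ENIF1 and 3.11 (SE 1.20) for SH3KBP1. Without VMAT replicate 3 the value of EIF4ENIF1 was the lowest of its leave-one-out values, 1.17.

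ELF1, an ETS family transcription factor, and SUPT20H, a subunit of the SAGA coactivator complex, had VMAT replicate 1 as the lowest pool. ELF1 had normalized counts of 547, 709, 1712 and 1744 in VIM and 12.4, 104 and 1084 in VMAT. SUPT20H had 2627, 1685, 1095 and 2757 in VIM and 21.8, 1504 and 954 in VMAT. The lowest VMAT values stood for 4 reads and 7 reads, and in both genes another VMAT pool lay within the range of VIM. The log2 fold change of SUPT20H was 2.58 with all samples and 0.67 without VMAT replicate 1. That of ELF1 was 3.17 with all samples and 1.62 without this pool. Of the 20 genes higher in VIM at an unadjusted p under 0.05, the lowest sample was VMAT replicate 3 in 10, VMAT replicate 1 in 9 and VMAT replicate 2 in 1, and in 15 of the 20 it held 30 reads or fewer. Each of the 20 kept its direction when any single pool was left out, and in 9 the groups did not overlap (4 under both scalings). The 20 were picked by p from these same pools, and no share over all genes is given beside these counts. They are a description and not support.

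**Figure D2:**
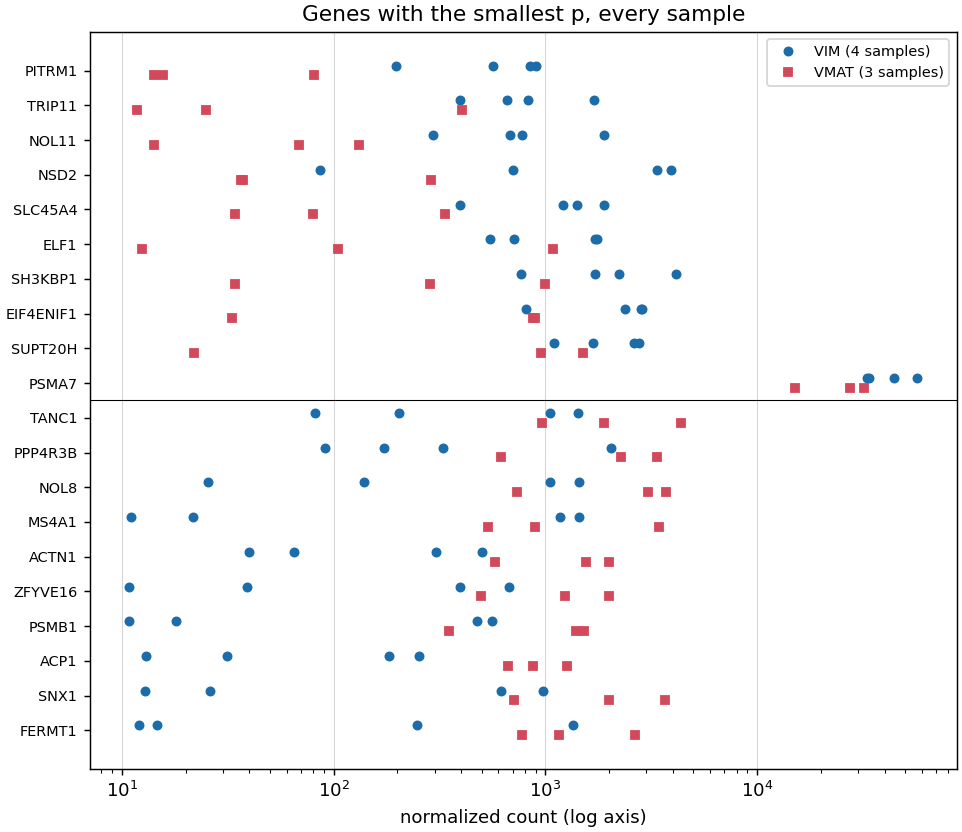
Normalized counts (log axis) in every sample for the 10 genes with a symbol and the smallest p higher in VIM (above the line) and the 10 higher in VMAT (below it), with VIM pools as circles and VMAT pools as squares. In many genes 1 or 2 pools of the lower group lie far below the rest, while PSMA7 is separated at a high level.

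In the direction of VMAT the pattern was of low pools within VIM. ACP1, a low molecular weight phosphatase, had normalized counts of 182, 13, 31.3 and 254 in VIM and 1270, 666 and 870 in VMAT. ACTN1, an actin crosslinking alpha-actinin, had 306, 65.2, 39.8 and 501 in VIM and 1562, 579 and 2003 in VMAT. These were the 2 genes of the 10 at this p whose groups did not overlap, and they did not overlap after rescaling either. Log2 fold changes were -3.74 (SE 1.69, interval -7.09 to -0.39) for ACP1 and -3.10 (SE 1.46, interval -5.98 to -0.21) for ACTN1. In both, VIM replicates 2 and 3 were the low pools.

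FERMT1, a kindlin that activates integrins, had the most negative log2 fold change of all well measured genes, -3.88 (SE 1.58). Its normalized counts were 1352, 246, 12.1 and 14.7 in VIM and 2648, 775 and 1154 in VMAT, so VIM replicate 1 lay inside the VMAT range. SNX1, a sorting nexin of the retromer on endosomes, had 12.9, 26.1, 970 and 619 in VIM and 2007, 711 and 3671 in VMAT. ZFYVE16, an endosomal FYVE domain protein, had 393, 39.1, 10.8 and 673 in VIM and 1992, 494 and 1233 in VMAT. The low VIM pools were replicates 3 and 4 in FERMT1, replicates 1 and 2 in SNX1 and replicates 2 and 3 in ZFYVE16, so they were not the same pools from gene to gene. The groups of SNX1 and ZFYVE16 overlapped as deposited but not after rescaling, and those of FERMT1 overlapped under both.

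PSMB1, a beta subunit of the same proteasome core as PSMA7, went the other way. Its normalized counts were 478, 17.9, 10.8 and 560 in VIM and 1525, 349 and 1398 in VMAT, with a log2 fold change of -3.36 (SE 1.65). NOL8, a nucleolar protein, had 139, 1056, 1446 and 25.4 in VIM and 3062, 735 and 3706 in VMAT. TANC1, a scaffold protein, had 1051, 204, 81.9 and 1430 in VIM and 1886, 964 and 4382 in VMAT. In all 3 genes the VIM pools fell into a low and a high pair, and the high pair overlapped with VMAT replicate 2 as deposited. After rescaling the groups of PSMB1 did not overlap, while those of NOL8 and TANC1 did. MS4A1, which encodes the B cell surface protein CD20, had 11.0, 1441, 21.7 and 1167 in VIM and 3445, 536 and 889 in VMAT, also with an overlap.

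PPP4R3B, a regulatory subunit of protein phosphatase 4, had normalized counts of 2050, 91.3, 174 and 330 in VIM and 2272, 618 and 3363 in VMAT. Its interval, -4.82 to 0.07, held 0. Among the 10 genes higher in VMAT at an unadjusted p under 0.05, VMAT replicate 1 was the highest sample in 6 and VMAT replicate 3 in 4, and 8 had a lowest sample of 30 reads or fewer. ENSECAG00000017318, the 1 gene of the 10 without a symbol, had normalized counts of 295, 17.9, 164 and 323 in VIM and 7459, 179 and 1964 in VMAT. VMAT replicate 1 was far above every other pool, and VMAT replicate 2 lay among the VIM pools.

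The 10 well measured genes called by DESeq2 were 8 higher in VIM (NSD2, PITRM1, NOL11, SLC45A4, ITSN2, PABPN1, TUBA1C and ABHD17A) and 2 higher in VMAT (CCDC186 and ENSECAG00000017318). Of the 10, 6 also had an unadjusted limma p under 0.05. ITSN2, an endocytic scaffold, had normalized counts of 622, 2926, 5223 and 754 in VIM and 283, 546 and 178 in VMAT, which did not overlap as deposited. The DESeq2 adjusted p values were 0.00783 for NSD2, 0.0141 for PITRM1, 0.0147 for NOL11, 0.0194 for ITSN2, 0.0286 for SLC45A4 and 0.00783 for ENSECAG00000017318. The other 4 calls lay between 0.0404 and 0.0483. PABPN1, the nuclear poly(A) binding protein, had 915, 1014, 1855 and 10.8 in VIM and 12.4, 149 and 38.9 in VMAT, where VIM replicate 4 was the lowest of all pools. TUBA1C, an alpha-tubulin, had 371, 2354, 701 and 49.9 in VIM and 121, 76.6 and 36.6 in VMAT, and alpha-tubulin genes are so alike that reads may be split between copies. ABHD17A, a depalmitoylase, had 622, 2442, 1755 and 25.4 in VIM and 31.1, 195 and 127 in VMAT. Each of these 3 genes had a VIM pool inside or below the VMAT range. CCDC186, a dense core vesicle protein, had 479, 1418, 612 and 831 in VIM and 9914, 1047 and 2208 in VMAT, with VMAT replicate 1 far above the rest. Its groups overlapped as deposited but not after rescaling. The log2 fold change was -1.89 with all pools and -0.99 without VMAT replicate 1, and the refit gave -1.94 (interval -3.32 to -0.57).

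Genes of the oocyte itself were close to balance in the wider of 2 lists. The list of oocyte and maternal-effect genes had 15 well measured members, of which 8 were higher in VIM and 7 in VMAT by their mean log2 value, as in all lists below, with a median log2 fold change of 0.00. None reached an unadjusted p under 0.05, and 1, NLRP13, did so in the refit. Of the 8 well measured oocyte markers given above, 2 were higher in VIM and 6 in VMAT, with a median log2 fold change of -0.11. DPPA3, a maternal factor that protects the oocyte genome from aberrant DNA methylation, had normalized counts of 6703, 7412, 6971 and 9191 in VIM and 16505, 6261 and 4501 in VMAT. BTG4, the adaptor that directs the CCR4-NOT deadenylase to maternal mRNA during maturation, had 4110, 7671, 3177 and 7106 in VIM and 6958, 3818 and 7486 in VMAT. The log2 fold changes were -0.04 (interval -1.15 to 1.06) for DPPA3 and -0.18 (interval -1.41 to 1.06) for BTG4, so a difference past 1.41 on the log2 scale is outside both intervals. H1-8, the oocyte linker histone, had 458, 986, 465 and 1017 in VIM and 619, 527 and 956 in VMAT, a log2 fold change of 0.00. Its within-group SD was 0.57, but limma's interval ran from -2.37 to 2.38, since limma pulls the variance of a gene toward that of genes at a similar level.

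The extremes of the oocyte list were NLRP13 and BMP15. NLRP13, of the NLRP family that includes maternal-effect genes, had normalized counts of 1661, 2036, 2575 and 1795 in VIM and 1008, 416 and 426 in VMAT. Each VIM pool was above each VMAT pool under both scalings, at 324 reads or more, with a log2 fold change of 1.82 (SE 1.02, interval -0.20 to 3.84). Leaving out a pool moved this value between 1.60 and 2.24, and the refit gave 1.77 with an interval of 0.47 to 3.06, which did not hold 0. BMP15, an oocyte-secreted growth factor, had 440, 17.9, 25.3 and 756 in VIM and 576, 282 and 1220 in VMAT. GDF9, its partner, had 1600, 1457, 1941 and 463 in VIM and 4413, 1877 and 2640 in VMAT. Both had lower means in VIM, with log2 fold changes of -2.36 (interval -5.65 to 0.92) and -1.22 (interval -3.01 to 0.58), and the groups overlapped in both as deposited, while those of GDF9 did not after rescaling.

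The zona pellucida genes ZP2 and ZP4, which encode the coat that hardens in many cryopreserved oocytes, varied from pool to pool. ZP2 had normalized counts of 722, 58.7, 27.7 and 468 in VIM and 12.4, 238 and 784 in VMAT. ZP4 had 1454, 1340, 42.2 and 634 in VIM and 115, 551 and 1918 in VMAT. Each group held both low and high pools, and the fold changes of 0.19 and -0.05 had intervals of -3.51 to 3.89 and -2.74 to 2.64.

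Cell cycle and spindle genes showed little direction as lists. Of 17 well measured members of the list of meiotic cell cycle and metaphase II arrest, 8 were higher in VIM and 9 in VMAT, with a median log2 fold change of 0.00 and no unadjusted p under 0.05. AURKA, the kinase of spindle poles, was among the 10 most abundant genes, with normalized counts of 17827, 25605, 30088 and 32658 in VIM and 41394, 9666 and 29050 in VMAT. Its log2 fold change was 0.19 (interval -0.57 to 0.95). CCNB1, the cyclin of maturation promoting factor, had a mean of 3491 in VIM and 3587 in VMAT. CCNB2, the related cyclin and the upper extreme of the list, had 457, 593, 778 and 992 in VIM and 21.8, 228 and 473 in VMAT. The lowest of these was 7 reads, and the log2 fold change of 2.33 (interval -0.60 to 5.25) became 1.04 without VMAT replicate 1. The groups of CCNB2 overlapped as deposited but not after rescaling. UBE2S, the ubiquitin conjugating enzyme that works with the anaphase promoting complex, was the lower extreme, with 138, 142, 423 and 679 in VIM and 1207, 487 and 685 in VMAT. WEE2, the oocyte kinase that holds meiotic arrest, had 188, 22.8, 1022 and 689 in VIM and 551, 202 and 407 in VMAT. Both overlapped between the groups.

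The spindle, kinetochore and microtubule list had 27 well measured members, 14 higher in VIM and 13 in VMAT, with a median log2 fold change of 0.07. KIF23, a kinesin of the central spindle, was the only member with an unadjusted p under 0.05, at a log2 fold change of 2.52 (SE 1.24). In the refit CEP57, a centrosomal protein, was the only one instead, at 1.26 (interval 0.31 to 2.22). NUMA1, which focuses spindle poles, was the lower extreme, with normalized counts of 160, 264, 13.3 and 410 in VIM and 479, 158 and 1460 in VMAT. Among other members, log2 fold changes were 0.61 (SE 0.70) for the kinesin KIF20B, 1.59 (SE 0.94) for the kinesin KIF18A, -0.59 (SE 0.73) for PRC1, which bundles antiparallel microtubules, and -0.26 (SE 0.88) for TPX2, which activates AURKA.

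The actin cytoskeleton list had 15 well measured members, 8 higher in VIM and 7 in VMAT, with a median log2 fold change of 0.02 and no unadjusted p under 0.05. TMSB4X, which sequesters actin monomers, had a mean of 5398 in VIM and 5423 in VMAT, and DIAPH3, a formin, had 5458 and 6117. The formin DIAPH1 was the upper extreme, with normalized counts of 562, 862, 317 and 20.5 in VIM and 15.6, 303 and 69.6 in VMAT. WASF1, a WAVE subunit that activates Arp2/3, was the lower extreme, with 253, 205, 300 and 15.6 in VIM and 62.2, 221 and 916 in VMAT. Both genes had a low pool in each group.

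Of 11 well measured genes for calcium and ion transport, 2 were higher in VIM and 9 in VMAT, with a median log2 fold change of -0.73 against 0.11 over all well measured genes. None had an unadjusted p under 0.05. ATP2A2, the pump that returns calcium to the endoplasmic reticulum, had a mean of 406 in VIM and 1055 in VMAT, with a log2 fold change of -1.87 (SE 1.33). PPP3R1, the regulatory subunit of calcineurin, which acts at egg activation in some species, had normalized counts of 126, 1377, 78.3 and 174 in VIM and 2748, 648 and 639 in VMAT. CALM2, a calmodulin and the upper extreme of the list, had 10372, 29574, 14290 and 26269 in VIM and 26572, 8381 and 17655 in VMAT. Its log2 fold change was 0.22 (interval -0.63 to 1.08). The list's median rested on VMAT replicate 1 and was 0.09 without it, and between -1.01 and -0.42 when any other pool was left out.

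Mitochondrial genes were limited by their names, with 15 of the 48 symbols for mitochondrial protein import and ribosome found in the table. Of the 7 well measured members of that list, 6 were higher in VIM, with a median log2 fold change of 0.83, and TOMM70 had an unadjusted p under 0.05. TOMM70, a receptor of the outer membrane translocase, had normalized counts of 521, 469, 987 and 1174 in VIM and 12.4, 56.9 and 499 in VMAT, a log2 fold change of 3.32 (SE 1.58) in which the lowest value stood for 4 reads. MRPS16, a mitochondrial ribosomal protein, was the only member higher in VMAT, with 513, 820, 358 and 16.6 in VIM and 884, 429 and 1160 in VMAT. The median of this list was 0.66 to 1.33 when a pool was left out, and highest without VIM replicate 4.

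Of 77 symbols for oxidative phosphorylation, 22 were found and 3 were well measured, with a median log2 fold change of -0.87 (-0.23 without VIM replicate 1 and -0.56 without VMAT replicate 1) and no unadjusted p under 0.05. In the refit 1 gene, NDUFA4, had such a p, at 3.15 (interval 0.16 to 6.15). NDUFA4, now placed with cytochrome c oxidase, had normalized counts of 411, 293, 218 and 456 in VIM and 12.4, 157 and 20.0 in VMAT. COX6A1, another subunit of that enzyme, had 28.2, 740, 1736 and 437 in VIM and 2664, 766 and 440 in VMAT. They went in opposite directions, with log2 fold changes of 3.23 (SE 1.91) and -1.43 (SE 1.31).

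**Figure D3:**
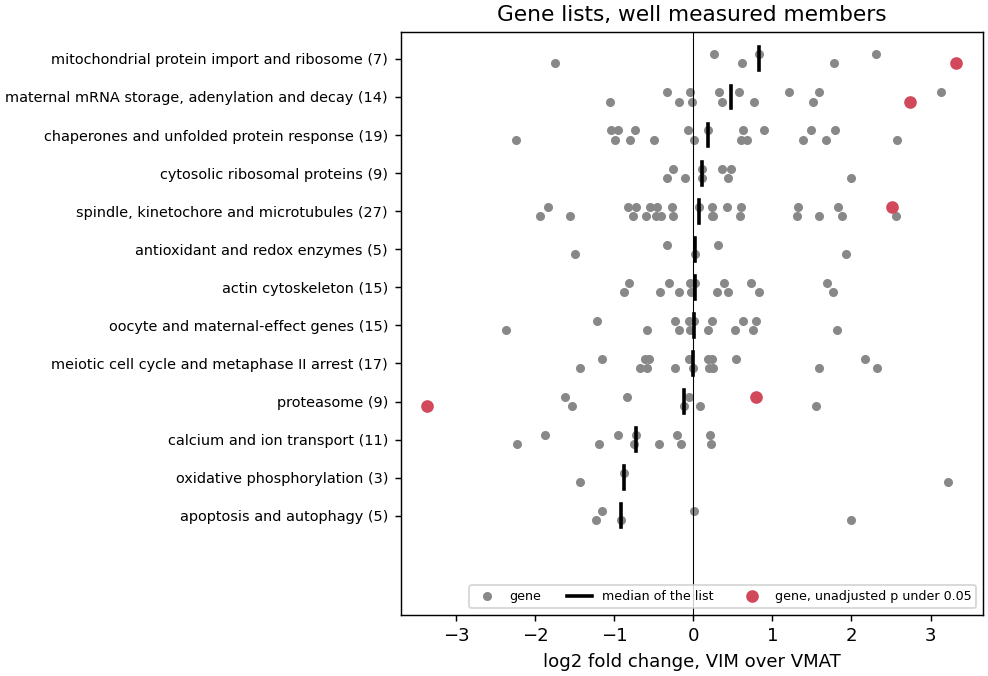
Log2 fold change of VIM over VMAT for each well measured member of the 13 gene lists, with the number of members beside the name of the list, black bars for the medians and red points for genes with an unadjusted p under 0.05. The lists with many members have medians near 0, and the medians farthest from 0 belong to lists of 3 to 11 genes.

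For protein turnover, the proteasome list had 9 well measured members, 3 higher in VIM and 6 in VMAT, with a median log2 fold change of -0.12, which was -0.77 without VMAT replicate 2 and 0.17 without VIM replicate 3. It held both PSMA7 and PSMB1, the 2 members with an unadjusted p under 0.05, which differed in opposite directions. In the refit PSMA7 kept such a p (interval 0.03 to 1.45) and PSMB1 did not (interval -6.89 to 0.06). PSMD12, a lid subunit and the upper extreme, had normalized counts of 495, 1350, 686 and 1178 in VIM and 24.9, 697 and 1397 in VMAT. Its log2 fold change of 1.55 became -0.20 without VMAT replicate 1. Of 5 genes for apoptosis and autophagy, 2 were higher in VIM and 3 in VMAT, with a median of -0.92 and no unadjusted p under 0.05. That median was -0.249 without VIM replicate 2, -0.38 without VIM replicate 3, and -1.003 to -0.44 without any other pool. ATG16L1, of the complex that lipidates LC3, had 667, 267, 145 and 178 in VIM and 15.6, 235 and 71.9 in VMAT, and LAMTOR5, a Ragulator subunit, had 348, 39.1, 1228 and 506 in VIM and 1341, 501 and 540 in VMAT. The groups overlapped in both.

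Chaperones and genes of the unfolded protein response had 19 well measured members, 11 higher in VIM and 8 in VMAT, with a median log2 fold change of 0.19 and no unadjusted p under 0.05. In the refit 1 member had such a p, CCT2, a subunit of the TRiC chaperonin, at 1.63 (interval 0.13 to 3.13). The heat shock genes HSP90AA1, HSP90AB1 and HSPA8 had log2 fold changes of 0.01 (SE 0.74), -1.04 (SE 0.87) and -0.06 (SE 1.13). HSPA2, an HSP70 chaperone, had normalized counts of 1481, 851, 776 and 536 in VIM and 18.7, 505 and 289 in VMAT, where the lowest value stood for 6 reads. HSPB11, which despite its symbol is also known as the ciliary transport protein IFT25, was the lower extreme, with 419, 140, 59.0 and 329 in VIM and 1827, 323 and 1126 in VMAT. The groups of HSPB11 overlapped as deposited but not after rescaling, and for HSPA2 it was the reverse. The median of the list was -0.42 without VMAT replicate 2 and positive, 0.06 to 0.47, without any other pool.

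Of 5 antioxidant and redox genes, 3 were higher in VIM and 2 in VMAT, with a median log2 fold change of 0.02 (-0.77 without VMAT replicate 2 and 0.48 without VMAT replicate 3) and no unadjusted p under 0.05. GSTM3, a glutathione transferase, had normalized counts of 1261, 694, 699 and 1302 in VIM and 3261, 1386 and 4233 in VMAT. Every VMAT pool was above every VIM pool under both scalings, at 426 reads or more, with a log2 fold change of -1.50 (SE 0.95, interval -3.38 to 0.38) and a range of -1.97 to -1.17 when a pool was left out. In the refit it was the 1 member of the list with an unadjusted p under 0.05, at -1.55 (interval -2.82 to -0.29). NFE2L2, which encodes the antioxidant regulator NRF2, had 811, 2160, 1389 and 2012 in VIM and 68.5, 1050 and 811 in VMAT. It went the other way, at 1.93 (SE 1.15), and 0.69 without VMAT replicate 1. SOD1 and PRDX2 had log2 fold changes of -0.33 (SE 1.03) and 0.32 (SE 0.77).

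The list for maternal mRNA storage, adenylation and decay had 14 well measured members, 9 higher in VIM and 5 in VMAT, with a median log2 fold change of 0.48 and EIF4ENIF1 as the only member with an unadjusted p under 0.05. YBX1, which coats stored mRNA, had a log2 fold change of 0.37 (SE 0.85), and CPEB1, which controls cytoplasmic polyadenylation, had -0.01 (SE 1.79). XRN2, a nuclear exonuclease and the lower extreme, had normalized counts of 292, 11.4, 575 and 461 in VIM and 1217, 291 and 138 in VMAT. The median of the list was 0.21 without VMAT replicate 1 and 0.44 to 0.68 without any other pool. Of 9 cytosolic ribosomal protein genes, 6 were higher in VIM and 3 in VMAT, with a median of 0.12 and no unadjusted p under 0.05. RPS25, a protein of the small subunit, had 159, 828, 321 and 239 in VIM and 744, 217 and 391 in VMAT, which overlapped. Ribosomal protein genes have many processed copies, so reads may have been divided among them.

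For some genes a large difference between the groups lay outside limma's interval. The width of that interval follows genes at a similar level as well as the gene's own pools. UBQLN1, an abundant gene, had a within-group SD of 1.58 and an SE of 0.53, while H1-8 had 0.57 and 1.20. Narrow intervals of abundant genes thus do not show that their own pools were alike. The 95% interval was within 1 of 0 on the log2 scale in 6 genes, within 2 in 184 and within 3 in 564, and the median half-width was 2.52. In the refit the numbers were 25, 349 and 660. PARP12, of the PARP family and the most abundant named gene, had normalized counts of 48194, 93527, 80237 and 96531 in VIM and 115589, 29533 and 83906 in VMAT. Its log2 fold change was 0.22 with an interval of -0.32 to 0.77. ARMC10, a protein of the mitochondrial outer membrane, had 14882, 30728, 23317 and 23181 in VIM and 39554, 9926 and 25991 in VMAT (0.04, interval -0.75 to 0.83). EIF5B, which joins the ribosomal subunits at initiation, had 16936, 27768, 19792 and 21282 in VIM and 44431, 7880 and 20891 in VMAT (0.12, interval -0.69 to 0.93). In these 3 genes VMAT replicate 1 was the highest pool and VMAT replicate 2 the lowest, the same order as in the scaling of the libraries.

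HMGB1, a chromatin architectural protein, had normalized counts of 10972, 14722, 12914 and 13771 in VIM and 29385, 6838 and 10108 in VMAT. DEK, another abundant chromatin protein, had 8461, 9136, 11537 and 12465 in VIM and 32730, 3301 and 9740 in VMAT. Their 4 VIM pools were close together while the VMAT pools spanned a range around them, and the log2 fold changes were 0.04 (interval -0.90 to 0.97) and 0.01 (interval -1.02 to 1.05). GLUL, glutamine synthetase, had 12802, 34334, 36224 and 23509 in VIM and 63590, 7981 and 18810 in VMAT. RTF1, a PAF complex factor of transcription elongation, and CDH3, P-cadherin, had log2 fold changes of 0.03 (interval -0.99 to 1.05) and -0.03 (interval -1.01 to 0.96). Groups overlapped in all of these.

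The remaining abundant genes were HPF1, the cofactor of PARP1 and PARP2, CAST, the calpain inhibitor calpastatin, and UBQLN1, a shuttle to the proteasome. HPF1 had normalized counts of 20470, 27617, 17850 and 18132 in VIM and 23497, 9586 and 13960 in VMAT, with a log2 fold change of 0.50 (interval -0.33 to 1.32). Its groups overlapped as deposited but not after rescaling. CAST had 28836, 44534, 31154 and 29596 in VIM and 58826, 11311 and 20091 in VMAT, at 0.47 (interval -0.25 to 1.20). UBQLN1 had 4457, 36689, 7203 and 13005 in VIM and 59031, 5144 and 6909 in VMAT, at -0.20 (interval -1.25 to 0.84). UBQLN1 varied most among the abundant genes, within each group and not between them. Over all well measured genes, 83 had every pool within 0.5 to 2 times the gene's mean, and 185 had so after rescaling.

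**Figure D4:**
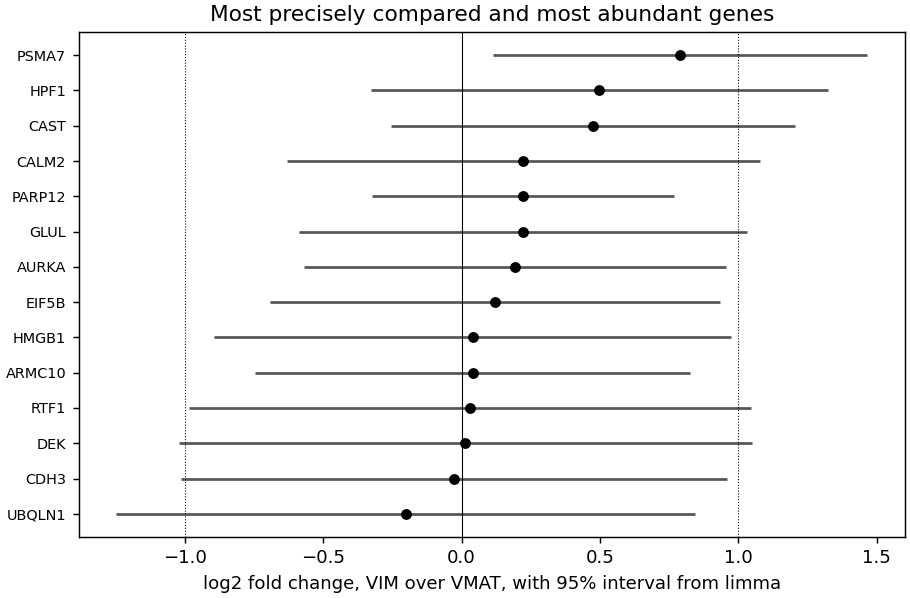
Log2 fold change of VIM over VMAT (points) with its 95% interval from limma (lines) for the 14 genes that were among the 10 with the interval reaching least far from 0 or the 10 most abundant. PSMA7 is the only one whose interval does not hold 0, and dotted lines mark 1 and -1.

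As whole profiles, pools of different groups differed by more than VIM pools did among themselves and by less than VMAT pools did, as deposited. Over the 1313 genes, the median absolute log2 difference between 2 pools was 0.923 to 1.23 within VIM (6 pairs, median 1.06), 1.21 to 2.21 within VMAT (3 pairs, median 1.60) and 0.903 to 1.70 between the groups (12 pairs, median 1.25). After rescaling the medians over pairs were 1.02, 1.31 and 1.01. Rescaled, the between-group median thus lay next to that within VIM. The highest difference as deposited was between VMAT replicates 1 and 2, the pools of lowest and highest depth, and after rescaling between VMAT replicates 1 and 3. The pairs share pools, so no test was made. Across genes, Pearson's r of 2 pools, given as a description over genes that are not independent, was 0.452 to 0.553 within VIM, 0.415 to 0.602 within VMAT and 0.439 to 0.690 between the groups.

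**Figure D5:**
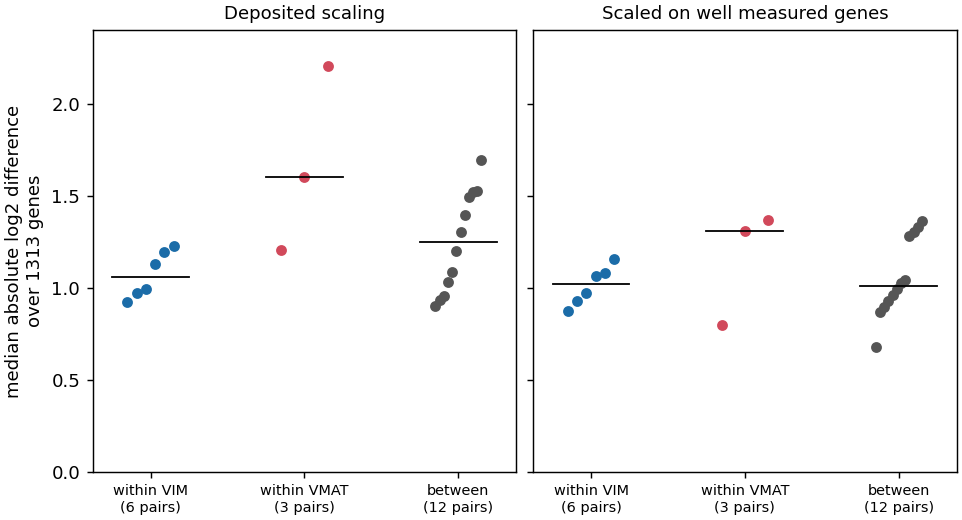
Median absolute log2 difference over 1313 genes (vertical axis) for each pair of pools within VIM, within VMAT and between the groups, with the deposited scaling at left and size factors from the well measured genes at right. Points are pairs and bars are medians over pairs, and the between-group median lies between those of VIM and VMAT at left and next to that of VIM at right.

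The rule of a value in every pool set aside many genes that were high in some pools. Of 3595 genes with a mean normalized count of at least 100 over the 7 samples, 1296 were well measured and 2299 were not. Of the latter, 1026 were below 10 in only 1 or 2 pools. In 15 the value was below 10 in every pool of one group and at least 10 in every pool of the other. At the edge of the rule, 51 well measured genes had a lowest value of 10 to 12, and 135 genes outside it had a lowest value of 8 to 10. A value of 10 stood for fewer reads in VMAT replicate 1 than in any other pool, and 244 well measured genes were at 30 reads or fewer there.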

How the data were processed

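RNA of pooled horse oocytes was sequenced in 4 VIM and 3 VMAT samples. The signal values that the authors deposited are gene counts divided by 1 DESeq2 size factor per sample, after trimming with Trim Galore, mapping with STAR to EquCab3.0, UMI-tools and RSEM, and every column was used. All values (100%) were whole multiples of 1 step per sample, so whole reads were recovered by division, for edgeR and DESeq2 only. Counting floors of 3 reads stood for 0.376 to 9.34 in normalized counts, for counting error only. Reads carried unique molecular identifiers, which the authors handled with UMI-tools. Coordinates and sequences of these genes were not used here.

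Genes above 0 in at least 3 of the 7 samples were tested without the fresh samples, after 1 was added to each value and log2 taken. The linear model and its moderated variances, with a trend over expression level, came from limma 3.58.1 under R 4.3.3. edgeR 4.0.16 and DESeq2 1.42.0 were alternatives. Symbols came from the study's supplementary lists and cover 1007 of the 1313 well measured genes, so the named genes are not a random sample of them. Named genes were the 10 with the smallest limma p in each direction, the extremes of each gene list, the 10 with the interval reaching least far from 0, the 10 most abundant and the 3 with the largest fold change each way. Genes called by DESeq2, PHF20L1, oocyte markers and list members given as examples were named after their values were seen. The members and the gene lists were chosen with earlier results of these data known. A gene among those chosen by rule is not reported here.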

Additional observations from a re-analysis of the deposited data

Results flagged for a closer look

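In 3 of 77 sets of 4 VIM values, 1 pool stood apart from the other 3 by Dixon's criterion (the gap to the nearest pool against the whole range), which chance alone gives in about 1 of 20 sets, or 3.85 of 77. PPP4R3B had a normalized count of 2050 in VIM replicate 1, against 91.3 to 330 in the other VIM pools. In VIM replicate 2, CAST was at 44534 (others 28836 to 31154) and PPP3R1 at 1377 (others 78.3 to 174). VMAT, with 3 pools, was not examined in this way.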

How the results depend on the processing

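No gene was called by limma under any scaling, filter, pseudocount or left-out pool tried, while all 7627 genes tested held 1 call by edgeR and 300 by DESeq2, and the well measured genes held 10 by DESeq2. The 30 well measured genes at an unadjusted p under 0.05 became 49 with equal column totals, 48 with quantile normalization, 50 with size factors from the well measured genes, 46 with all 12 samples in one fit, 15 without the variance trend, 18 by edgeR, 63 by DESeq2, and 47 with size factors and fit on the well measured genes (added after seeing the data). With a minimum of 5 in place of 10 there were 54, and with a minimum of 50 there were 7. The 54 genes without overlap became 28 at a minimum of 50, and the 430 with a log2 fold change of at least 1 became 688 and 163 at minimums of 5 and 50. Leaving out a pool gave 21 to 59 genes at that p (59 without VMAT replicate 1, 57 without VMAT replicate 2) and 81 to 188 without overlap. For counts at that p and without overlap, shares over all genes tested were computed for the main fit and rescaling only.

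Medians of gene lists when a pool was left out ranged from -1.13 to -0.23 for oxidative phosphorylation, 0.66 to 1.33 for mitochondrial import and ribosome, -0.77 to 0.17 for the proteasome, -1.01 to 0.087 for calcium and ion transport, -0.42 to 0.47 for chaperones, -0.77 to 0.48 for antioxidant enzymes and -1.003 to -0.249 for apoptosis and autophagy. The causes were not tested. Pools with the same number did not deviate together (correlations of -0.116, -0.0186 and 0.0214), so numbers were not taken as pairs. With the replicate block there were 18 genes at an unadjusted p under 0.05, no calls, and a median of 1.33 for mitochondrial import and ribosome. Depth limits genes that stand on 4 to 30 reads in VMAT replicate 1.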
